A study of Caenorhabditis elegans with 4 samples.

Results

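In C. elegans, 81 of the 15913 piRNAs in the deposited table were read mainly in the antisense orientation in small RNAs that co-purified with the Argonaute PRG-1. They were chosen from the reads themselves, as the piRNAs with at least 3 antisense reads over the 4 libraries and with more antisense than sense reads. The orientation and the size of these read sums are therefore a description of the choice and not a finding. The question examined here is how those antisense reads were spread over single piRNAs, libraries and genotypes.

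The libraries came from adult hermaphrodites raised at 25 °C, and whole worms were lysed. The mutant group, prg-1(∆PAZ-domain), had 2 libraries from animals whose V5-tagged PRG-1 lacked the PAZ domain. The wild type group had 2 libraries from animals with V5-tagged PRG-1 of full length, so both groups carried the tag. The labels state neither whether replicates were separate cultures nor how the mutant allele was made, so any p-value reflects the spread of these libraries alone, which may be technical. No input RNA or untagged precipitate was analysed here, and the tables hold no measure of prg-1 or of tissue markers.

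PRG-1 is the Piwi-class Argonaute of the C. elegans germline, and piRNAs are the short RNAs that guide it to partly complementary transcripts. In worms each piRNA is made from its own small transcription unit, most of them on chromosome IV, and reads in the sense orientation have the sequence of the piRNA itself. A read in the antisense orientation is complementary to a piRNA sequence. After PRG-1 binds a target, RNA-dependent RNA polymerases make secondary small RNAs that are complementary to that target, and other Argonautes carry them; the target itself is the strand that pairs with the piRNA. The PAZ domain of an Argonaute holds the 3' end of the small RNA.

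The libraries held 7819170 and 14430880 genome-mapped reads in mutant replicates 1 and 2, and 6461936 and 8416474 in wild type replicates 1 and 2. Levels are given as antisense reads per 1000000 genome-mapped reads (RPM), and a count of 0 allows up to 3 reads, or 0.208 to 0.464 RPM over the libraries. Antisense reads were 1.49% (95% exact binomial interval 1.33 to 1.67) and 2.52% (2.30 to 2.76) of all piRNA reads in mutant replicates 1 and 2. In wild type replicates 1 and 2 they were 0.705% (0.662 to 0.749) and 0.661% (0.620 to 0.705). PCR copies of 1 molecule are not independent, and all such intervals describe counting error alone. Reads in the 1 Mb plus-strand bin of chromosome I that holds 4 ribosomal RNA genes took 29.6% and 61.2% of mapped reads in mutant replicates 1 and 2 and 63.2% and 67.1% in wild type replicates 1 and 2.

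Antisense reads were few and were concentrated on few piRNAs. The 4 libraries held 2698 antisense reads on 354 piRNAs, and the 81 piRNAs took 2285 of them (84.7%). Of these 2285 reads, cel-piR-10337 alone had 1194 (52.3%) and cel-piR-5427 had 301 (13.2%), which left 790 (34.6%) for the other 79. The median piRNA of the set had 5 antisense reads, and 60 of the 81 had fewer than 10. In the sense orientation the 81 piRNAs had only 198 of the 320249 sense reads, and 61 of them had none. Just inside the threshold, 27 piRNAs had exactly 3 antisense reads, and just outside it, 40 piRNAs had 2 antisense reads and fewer sense reads. No piRNA had at least 3 antisense reads and an equal number of sense reads.

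The makeup of the antisense reads differed between the genotypes. The 81 piRNAs held 62.3% (95% exact binomial interval 56.7 to 67.8) and 72.1% (67.7 to 76.3) of the antisense reads in mutant replicates 1 and 2. They held 91.1% (89.2 to 92.8) and 91.1% (89.1 to 92.9) in wild type replicates 1 and 2. Both mutant shares lay below both wild type shares. The 81 were chosen from these same reads, so the intervals are no test of a difference. Of the 81, 18 were read in mutant replicate 2 alone, and 32 would not meet the rule without that library. A single piRNA, cel-piR-10337, took 8.44% and 2.70% of all antisense reads in the mutant libraries and 57.6% and 61.4% in the wild type libraries. For cel-piR-5427 the shares were 7.79% and 8.31% in the mutant and 13.7% and 10.8% in wild type. The other 79 held 46.1% and 61.1% of the antisense reads in the mutant and 19.8% and 18.9% in wild type.

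**Figure D1:**
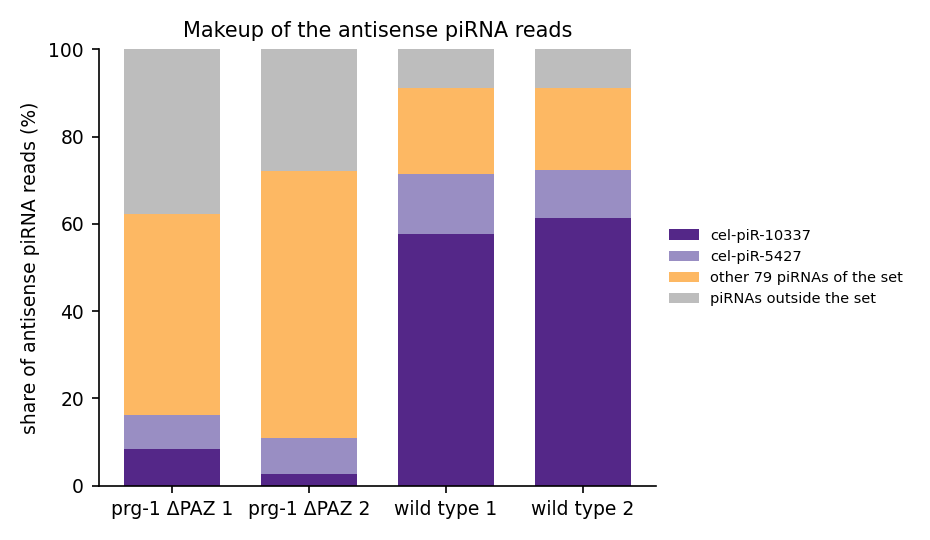
Stacked bars show, for each library on the horizontal axis, the share of its antisense piRNA reads (percent, vertical axis) that fell on cel-piR-10337, cel-piR-5427, the other 79 piRNAs of the set and all piRNAs outside it. The share of cel-piR-10337 is 8.44% and 2.70% in the mutant libraries and 57.6% and 61.4% in the wild type libraries.

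Summed over the 81 piRNAs, antisense RPM was lower in the mutant, and a large part of that difference lay in a single piRNA. The sum was 24.6 and 22.2 RPM in mutant replicates 1 and 2 and 143 and 101 in wild type replicates 1 and 2. The mean was 23.4 ± 1.63 in the mutant and 122 ± 29.5 in wild type (SD, n = 2 each), so the mutant was at 19.2% of wild type, a log2 ratio of -2.38. Without cel-piR-10337 the sum was 21.2 and 21.4 RPM in the mutant and 52.5 and 32.9 in wild type. The mutant mean was then 49.9% of the wild type mean, a log2 ratio of -1.001. The genotypes did not overlap in either sum. In a bulk precipitate, fewer germ cells, less PRG-1 recovered and less RNA bound per protein cannot be told apart.

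Without cel-piR-5427 as well, a step chosen after the values were seen, the other 79 piRNAs summed to 18.2 and 18.8 RPM in mutant replicates 1 and 2 and to 31.0 and 20.9 in wild type replicates 1 and 2. The means were 18.5 ± 0.486 in the mutant and 25.9 ± 7.10 in wild type (SD, n = 2 each), a log2 ratio of -0.49. The genotypes did not overlap, but the difference of means was about the size of the wild type SD. The 15832 piRNAs outside the set summed to 14.8 and 8.59 antisense RPM in the mutant and to 13.9 and 9.86 in wild type, and these values overlapped. Over all piRNAs antisense reads were at 35.1 ± 6.05 RPM in the mutant and 134 ± 32.4 in wild type (SD, n = 2 each), with a two-sided exact permutation p of 0.33, the smallest that 2 against 2 libraries allow. Sense piRNA reads were at 1896 ± 996 RPM in the mutant and 19358 ± 3832 in wild type (SD, n = 2 each).

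The direction depended on the denominator. Set against 1000 sense piRNA reads of the same library, the antisense sum of the 81 piRNAs was 9.45 and 18.7 in mutant replicates 1 and 2 and 6.47 and 6.07 in wild type replicates 1 and 2. Both mutant values were thus above both wild type values on that scale. Sense reads in the mutant were at 9.79% of wild type per genome-mapped read, against 19.2% for the antisense sum of the 81. Without cel-piR-10337 the antisense sum was 8.17 and 18.0 per 1000 sense reads in the mutant and 2.38 and 1.98 in wild type.

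**Figure D2:**
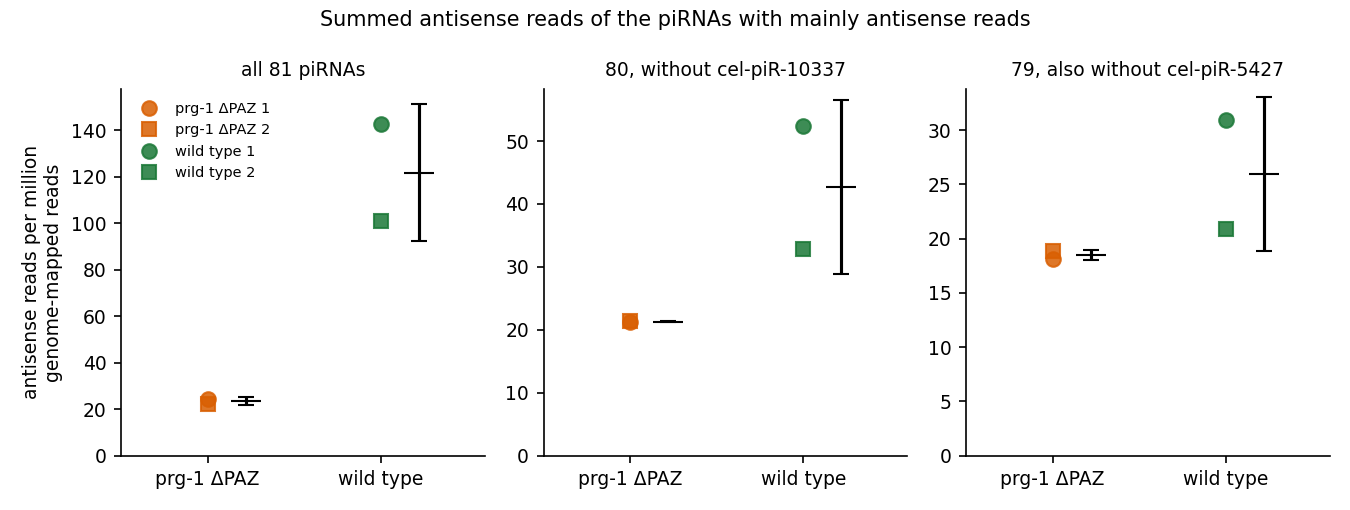
Points give the summed antisense RPM of each library (vertical axes, each starting at 0), with the mutant left of wild type; black bars are the mean ± SD of 2 libraries. The panels show all 81 piRNAs, 80 without cel-piR-10337 and 79 also without cel-piR-5427, where the mutant values of 18.2 and 18.8 lie just below the lower wild type value of 20.9.

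Single piRNAs were tested on the antisense counts of the whole table with edgeR's quasi-likelihood test, with the library size set to genome-mapped reads. Only 7 piRNAs passed the filter of the test, and all 7 belonged to the set, so 74 of the 81 were not tested. The filter asks for a minimum level in at least 2 libraries as well as a minimum sum, which 1 genotype alone can meet. Thus cel-piR-9596 entered with 24 antisense reads, all in wild type, while cel-piR-14284 with 34 over both genotypes did not. Of the 7, 4 were lower in the mutant at a Benjamini-Hochberg adjusted p under 0.05 (57.1% of those tested) and 0 were higher (0% of those tested). Among those called, cel-piR-13497 and cel-piR-9596 entered through their wild type reads alone, as did cel-piR-7632, which was not called. No tested piRNA entered through its mutant reads alone, so the counts of lower and higher piRNAs partly describe entry to the test. At an unadjusted p under 0.05 edgeR gave 5 lower and 0 higher; by DESeq2 there were 4 lower and 0 higher at an adjusted p under 0.05. With every piRNA of at least 3 antisense reads admitted, 4 of 95 were lower (4.21%) and 0 were higher, with unadjusted counts of 10 and 0, and the 4 were the same piRNAs. The number called lower changed with the libraries used: 1 and 3 when mutant replicates 1 and 2 were left out in turn, and 0 when either wild type library was. With the replicate number as a block none of the 4 passed (edgeR adjusted p from 0.0971 to 0.144), and cel-piR-7632 was called lower instead (0.0286). With median-of-ratios size factors none of the 4 passed (edgeR adjusted p from 0.108 to 0.175). With TMM factors cel-piR-5427 (edgeR adjusted p = 0.274) and cel-piR-9596 (0.0898) did not pass, and without a filter on low counts cel-piR-5427 did not (0.0806).

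The largest of the set, cel-piR-10337, was read only in the antisense orientation. Mutant replicates 1 and 2 gave 26 and 12 antisense reads, wild type replicates 1 and 2 gave 583 and 573, and no library held a sense read of it. These were 3.33 and 0.832 RPM in the mutant and 90.2 and 68.1 in wild type. The wild type libraries were close to each other, and both lay far above the mutant libraries, which were further apart in relative terms. The mutant mean was 2.63% of wild type. The fitted log2 fold change of -5.29 ± 1.18 (SE) passed the threshold (edgeR adjusted p = 0.00858), and wild type exceeded the mutant 45.5-fold on pooled reads (95% counting interval 32.9 to 64.6). Both wild type libraries reached the minimum level of the filter, but of the mutant libraries only replicate 1 did. Its wild type reads were thus needed for its entry to the test. It kept its direction with sense piRNA reads as the library size (log2 fold change -2.04). Without wild type replicates 1 and 2 in turn the log2 fold change was -5.05 and -5.46 and the call was lost (edgeR adjusted p = 0.326 and 0.212). With the replicate block it was -5.50, also short of the threshold (edgeR adjusted p = 0.101).

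The second largest, cel-piR-5427, was read in both orientations. Its antisense reads numbered 24 and 37 in mutant replicates 1 and 2 and 139 and 101 in wild type replicates 1 and 2, or 3.07 and 2.56 RPM in the mutant and 21.5 and 12.0 in wild type. The genotypes did not overlap. Its mutant mean was 16.8% of wild type, and its log2 fold change of -2.57 ± 0.61 (SE) passed at an edgeR adjusted p of 0.00883, but was 0.97 with sense piRNA reads as the library size. The call was lost without each library in turn, at edgeR adjusted p values of 0.0605, 0.111, 0.0869 and 0.0773 without mutant replicates 1 and 2 and wild type replicates 1 and 2, while the log2 fold change stayed between -2.93 and -2.09. With the replicate block it was -2.51 (edgeR adjusted p = 0.0971). Its sense reads were 27 and 0 in mutant replicates 1 and 2 and 38 and 26 in wild type, so the sense orientation overlapped between genotypes. The sense log2 fold change was -1.41 with an edgeR adjusted p of 0.339, in a fit where 76.9% of 1355 piRNAs were lower in the mutant.

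The other called piRNAs had antisense reads only in wild type. The reads of cel-piR-13497 were 0 and 0 in mutant replicates 1 and 2 and 14 and 28 in wild type replicates 1 and 2. With the mutant at the limit of 3 reads over both libraries and the wild type counts taken as exact, it was 20.9-fold lower (edgeR adjusted p = 0.00727). With counting error in both genotypes, the counting interval of its pooled wild type to mutant ratio began at 16.3. For cel-piR-9596 the reads were 0 and 0 in the mutant and 8 and 16 in wild type, at least 11.96-fold lower in the mutant by the same limit (edgeR adjusted p = 0.00858). Each entered the test through its wild type reads alone, so a difference was built into its entry. Both calls were lost without mutant replicate 1 (edgeR adjusted p = 0.0605 and 0.0766), without wild type replicate 1 (0.157 and 0.695) and with the replicate block (0.144 for each). In the fit without wild type replicate 2 they did not have enough reads to be tested.

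Of the remaining tested piRNAs, cel-piR-7632 gave 7 and 11 antisense reads in mutant replicates 1 and 2 and 17 and 19 in wild type replicates 1 and 2. Its levels were 0.895 and 0.762 RPM in the mutant and 2.63 and 2.26 in wild type, with the mutant values below and both pairs close. Its log2 fold change of -1.55 ± 0.60 (SE) missed the threshold (edgeR adjusted p = 0.0552). This piRNA too entered the test through its wild type reads alone. The log2 fold change turned to 1.93 with sense piRNA reads as the library size, 0.12 with TMM and 0.45 with median-of-ratios factors. With the replicate block it passed (edgeR adjusted p = 0.0286).

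Higher mean levels in the mutant did not hold across both libraries for cel-piR-14222 and cel-piR-8485. The piRNA cel-piR-14222 gave 35 and 13 antisense reads in mutant replicates 1 and 2 and 10 and 7 in wild type replicates 1 and 2, or 4.48 and 0.901 RPM in the mutant and 1.55 and 0.832 in wild type. Mutant replicate 1 stood above the other 3 libraries, which were alike. The edgeR log2 fold change of 1.15 ± 0.90 (SE) missed the threshold (adjusted p = 0.246) and turned to -0.38 without mutant replicate 1. In the sense orientation it had 13 and 1 reads in the mutant and 13 and 24 in wild type, a sense log2 fold change of -1.56 (edgeR adjusted p = 0.230). For cel-piR-8485 the antisense reads were 7 and 43 in the mutant and 8 and 1 in wild type, or 0.895 and 2.98 RPM in the mutant and 1.24 and 0.119 in wild type. Here mutant replicate 2 stood highest and mutant replicate 1 lay between the wild type libraries, with a log2 fold change of 1.59 ± 1.09 (SE) and an edgeR adjusted p of 0.226. Both piRNAs passed as higher with TMM factors (edgeR adjusted p = 0.0236 and 0.0110) and with sense piRNA reads as the library size (5.43e-04 and 1.38e-04).

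**Figure D3:**
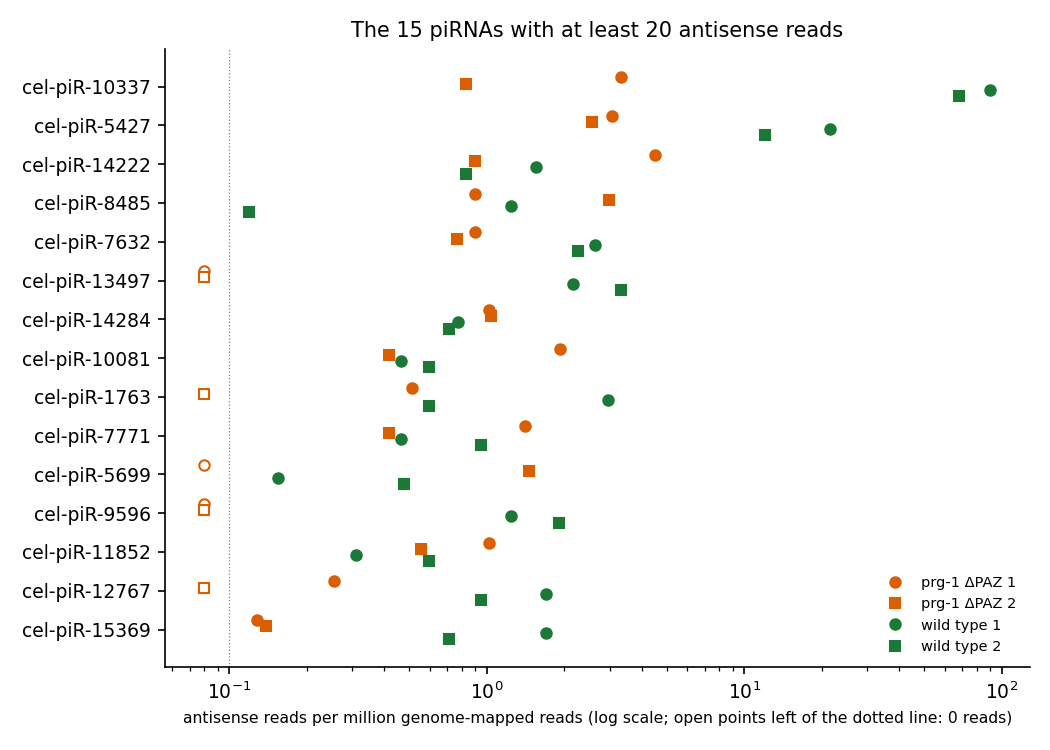
Each row is 1 of the 15 piRNAs with at least 20 antisense reads, and points give antisense RPM in each library on a log axis, with open points at the left edge for 0 reads. The wild type points of cel-piR-10337 at 90.2 and 68.1 stand apart from all others, while the piRNAs below cel-piR-5427 lie within 0.1 to 5 RPM in both genotypes where they were read.

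The remaining piRNAs among the 10 with most antisense reads did not pass the filter of the test. The piRNA cel-piR-14284 gave 8 and 15 antisense reads in mutant replicates 1 and 2 and 5 and 6 in wild type replicates 1 and 2. That is 1.02 and 1.04 RPM in the mutant and 0.774 and 0.713 in wild type, without overlap, but the pooled mutant to wild type ratio of 1.40 had a 95% counting interval of 0.655 to 3.18. For cel-piR-10081 the reads were 15 and 6 in the mutant and 3 and 5 in wild type. For cel-piR-7771 they were 11 and 6 in the mutant and 3 and 8 in wild type, and both of these piRNAs overlapped between the genotypes. The 3 piRNAs had 0 sense reads in every library.

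The piRNA cel-piR-1763 lay at the edge of the set, with 28 antisense and 27 sense reads. Its antisense reads were 4 and 0 in mutant replicates 1 and 2 and 19 and 5 in wild type replicates 1 and 2, and 1 and 0 sense reads in the mutant and 14 and 12 in wild type. In both orientations the mutant values thus lay below the wild type values. The sense log2 fold change was -4.88 with an edgeR adjusted p of 8.48e-05, given as a description since sense reads helped to choose the set, and on pooled antisense reads wild type exceeded the mutant 8.97-fold (95% counting interval 3.08 to 35.6). The piRNA cel-piR-12767 had 2 and 0 antisense reads in the mutant and 11 and 8 in wild type, a wild type to mutant ratio of 14.2 (counting interval 3.43 to 126). For cel-piR-15369 the reads were 1 and 2 in the mutant and 11 and 6 in wild type, a ratio of 8.47 (counting interval 2.45 to 45.1). These intervals are wide because the mutant libraries held at most 4 reads of each. All of these piRNAs were among those picked for non-overlapping libraries and a large pooled ratio, so the intervals describe that choice. In the edgeR fit of every piRNA with at least 3 antisense reads, none of them passed. Their edgeR adjusted p was 0.288 for cel-piR-1763, 0.290 for cel-piR-12767 and 0.415 for cel-piR-15369.

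More of the 81 piRNAs lay wholly below wild type in the mutant than wholly above it, as also among the 95 considered next. Both mutant levels were below both wild type levels for 21 of the 81 (25.9%) and above them for 5 (6.17%), and the libraries overlapped for 55. Some of the 21 rest on library depth. For cel-piR-460 and cel-piR-973 the antisense reads were 0 and 1 in the mutant and 1 and 1 in wild type. Among all 95 piRNAs with at least 3 antisense reads, 25.3% were below and 5.26% above, and since 81 of those 95 are the set itself, these shares are not a separate comparison. Of the 14 outside the set, 3 were below and 0 above. With reads pooled by genotype, 45 of the 81 had a higher level in the mutant and 36 a lower one. Of the 81, 23 had 0 antisense reads in wild type and 15 had 0 in the mutant, and 18 were read in mutant replicate 2 alone. Such piRNAs entered the set through the genotype in which they are higher, so the 45 and 36 are no result about direction. With any pooled count under 3 raised to 3 reads, the median log2 ratio was -0.58 over the 81 and -0.58 over the 95. That is the value the depths alone give to any piRNA with at most 3 pooled reads in each genotype, so it shows no direction. Among the 37 of the set with at least 6 antisense reads, 14 were below and 2 above, and the median was 0.05, against shares of 40% and 5% and a median of -0.06 over all 40 such piRNAs.

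The 2 piRNAs above wild type with at least 6 reads were cel-piR-14284 and cel-piR-12190. The piRNA cel-piR-12190, named after its values were seen, gave 4 and 2 antisense reads in mutant replicates 1 and 2 and 0 and 1 in wild type replicates 1 and 2. At the other end, 15 of the 81 had 0 antisense reads in both mutant libraries, 23 had 0 in both wild type libraries, and 43 were read in both genotypes. Reads in all 4 libraries were found for 12 piRNAs.

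**Figure D4:**
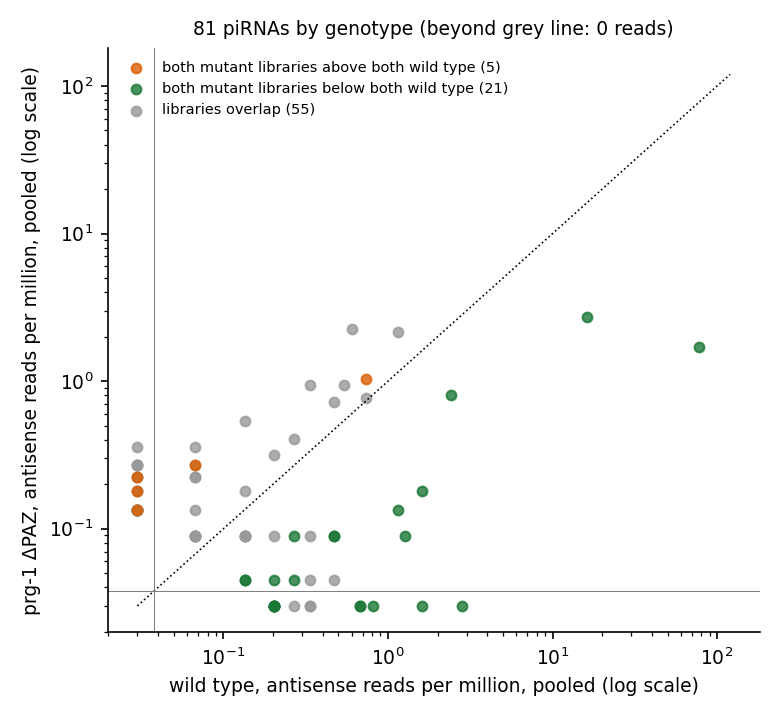
Each point is 1 of the 81 piRNAs, with antisense RPM pooled over 2 libraries in the mutant (vertical) against wild type (horizontal), both on log axes, with 0 reads drawn beyond the grey lines and the dotted line at equal levels; points with the same counts coincide. The 21 piRNAs whose mutant libraries both lay below wild type include the 2 with the highest levels, and the other points spread on both sides of the line.

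Many of the rarer piRNAs were in the set through 1 library. Of the 81, 27 were read in exactly 1 library, with at most 8 reads each and 106 reads in all. Mutant replicate 2 was the source for 18 of the 27, mutant replicate 1 for 2, wild type replicate 1 for 4 and wild type replicate 2 for 3. Mutant replicate 2 held 38.9% of all genome-mapped reads, the highest share of the 4 libraries. Outside the ribosomal RNA bin, mutant replicates 1 and 2 held 5505388 and 5604001 mapped reads. The rule counts reads without regard to depth, and the cause of the 18 was not tested. Antisense reads were found for 30 and 56 of the 81 in mutant replicates 1 and 2 and for 47 and 42 in wild type replicates 1 and 2. At the 6461936 mapped reads of the shallowest library, the expected numbers were 28.8 and 44.6 in the mutant and 47 and 38.8 in wild type. The piRNAs counted were chosen from the same reads at full depth, so these numbers are a description of the choice. Without mutant replicate 2 the rule would keep 49 piRNAs, all of them among the 81.

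The sense reads of the set were also unevenly spread. The 81 piRNAs had 41 and 2 sense reads in mutant replicates 1 and 2 and 76 and 79 in wild type replicates 1 and 2. The 20 piRNAs with any sense read were led by cel-piR-5427 with 91, cel-piR-14222 with 51 and cel-piR-1763 with 27, and the other 17 had at most 3 each. In mutant replicate 2, which had 321 antisense reads on the set, the sense reads numbered only 2.

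By the rule, piRNAs outside the set with at least 3 antisense reads had at least as many sense reads, which describes the choice. The piRNA cel-piR-11737 gave 16 and 2 antisense reads in mutant replicates 1 and 2 and 1 and 2 in wild type replicates 1 and 2, beside 91 and 45 sense reads in the mutant and 1206 and 743 in wild type. Its antisense reads thus came mainly from mutant replicate 1. For cel-piR-8625 the antisense reads were 0 and 1 in the mutant and 1 and 12 in wild type, with 155 sense reads in all, and cel-piR-15075 had 7 antisense and 28 sense reads in all. None of the 14 outside the set had more than 21 antisense reads, against 1194 for cel-piR-10337.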

How the data were processed

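Small RNAs from PRG-1 precipitates were sequenced in 4 libraries, grouped and numbered by sample title. The deposited table of the authors holds raw counts per piRNA and orientation for a piRNAdb set (version 1.7.6), per the file headers, and raw counts per 1 Mb bin and orientation of the ce11 genome, per the file headers. Another table that the authors deposited gives total, genome-mapped and sense piRNA reads per library. The aligner, trimming, allowed mismatches and the handling of multiply matching reads are not stated in any label or header, so piRNAs that share sequence with each other or with other RNAs are uncertain. The table pairs identifiers with neither sequence nor position, so no sequence or coordinate of a piRNA was used here, and the origin of the antisense reads was not tested.

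Antisense counts were divided by genome-mapped reads. Antisense counts of all piRNAs were tested with edgeR 4.0.16 (R 4.3.3; quasi-likelihood; library size the genome-mapped reads; filterByExpr with a minimum count of 10 and total of 15; Benjamini-Hochberg; threshold 0.05). The sense counts, which chose the members, were fitted the same way only to set values beside them. The SE was the absolute log2 fold change divided by the square root of F. DESeq2 1.42.0 was an alternative. Leaving out a library leaves 1 in a genotype, which is then assumed to vary like the other genotype. Fits were tested on simulated data. Counting intervals of ratios are exact, on reads pooled by genotype. The ribosomal RNA bin was located with the WBcel235 annotation of Ensembl release 115 (WBcel235 is ce11). Python 3.11.15, SciPy 1.17.1 and pandas 2.3.3 were used.

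The members and lists were chosen with earlier results of these data known. Named piRNAs were the 10 with most antisense reads, those called by edgeR, up to 6 of at least 6 antisense reads whose libraries did not overlap between genotypes, with the largest pooled ratio, and the 3 with most antisense reads outside the set.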

Additional observations from a re-analysis of the deposited data

How the results depend on the processing

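With sense piRNA reads as the denominator, the log2 ratio of mutant to wild type turned to 1.58 over all piRNAs, to 1.17 over the 81 and to 2.59 without cel-piR-10337; sense reads were themselves at 9.79% of wild type in the mutant. With mapped reads outside the ribosomal RNA bin it moved to -2.91 over the 81 and to -1.51 without cel-piR-10337, and the cause was not tested. Among piRNAs with at least 10 antisense reads the ratio of the full set was -2.79. Without cel-piR-10337 it was -0.42 among piRNAs with 0 sense reads, which leaves out cel-piR-5427, and -0.49 without cel-piR-5427, an alternative chosen after seeing the data. The count of 4 lower piRNAs became 2 with TMM, 0 with median-of-ratios factors, 1 with sense reads as the library size and 0 to 3 with 1 library left out. The count of 0 higher became 2 with TMM, 6 of 10 with sense reads as the library size and 0 to 1 with 1 library left out. With sense reads as the library size, cel-piR-13497 and cel-piR-9596 did not enter the test, so the count there is over a different tested set. TMM and median-of-ratios factors rest on only 7 piRNAs and moved their median log2 fold change to -0.84 and -0.48, against -2.57 per genome-mapped read. The reversals were cel-piR-5427 at 0.97 and cel-piR-7632 at 1.93 with sense reads as the library size, cel-piR-7632 at 0.12 with TMM and 0.45 with median-of-ratios factors, and cel-piR-14222 between -0.38 and 1.92 with 1 library left out. The rule gave 49 to 69 piRNAs with 1 library left out, a check chosen after seeing the data. With the replicate block the 4 calls were lost and cel-piR-7632 was called, a count of 1, and the block gave log2 ratios of -1.92 over all piRNAs, -2.36 over the 81 and -0.96 without cel-piR-10337. The deviations of same-numbered libraries correlated at 0.04 over 1119 piRNAs with at least 40 sense reads and at 0.13 over the 37 of the set with at least 6 antisense reads. The labels give the numbers no meaning, and 2 pairs are too few to show from the data whether they pair the samples. Depth limits most of the set, since 60 of the 81 had fewer than 10 antisense reads.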
